A study of Mus musculus with 105 samples.

Results

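The miR-99/100 and miR-125 families of mouse are described here through the 7 mature strands listed by name for them, out of 1013 miRNAs in the small-RNA tables. They are miR-99a-5p, miR-99b-5p, miR-100-5p, miR-125a-5p, miR-125a-3p, miR-125b-5p and miR-125b-2-3p, and all 7 were found in every table.

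The study measured how fast miRNAs are made and lost, by feeding cells 5-ethynyluridine (5EU), a uridine analogue that enters new RNA and lets that RNA be captured. An EU library is made from small RNA captured after a given labelling time, and its input library from the uncaptured small RNA of that culture. All libraries of 1 culture, ordered by labelling time, form a time course, which is the replicate here. Nothing in the labels beyond the replicate number says that 2 courses of a line came from separate cells, so p-values of levels and early label measure only the spread between these courses. The main half-life test used 1 spread for all miRNAs of a contrast. Its p-values therefore do not reflect how far the courses of a given strand disagree. Drift over labelling time was tested on single libraries, and its p-values measure the scatter of time points within courses, which for the knockout are 6 libraries of 1 culture.

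The knockout line, labelled CyrKO, is a C57BL/6J fibroblast culture held in contact inhibition for 5 days. It is read here as lacking Cyrano, a long noncoding RNA that directs decay of miR-7. It has 1 course of 6 EU and 6 input libraries at 2, 4, 8, 24, 72 and 168 h, with 400 µM 5EU. ESC are embryonic stem cells of the v6.5 line, which the labels give as C57BL/6, kept in medium with LIF and the inhibitors PD0325901 and CHIR99021. They received 125 µM 5EU and have 2 courses of 13 EU and 13 input libraries in all, at 1, 2, 4, 8, 16 and 24 h. CIMEF are C57BL/6J embryonic fibroblasts held in contact inhibition for 5 days, with 400 µM 5EU and 2 courses of 15 EU and 15 input libraries in all, up to 168 h. DMEF are dividing embryonic fibroblasts of the same strain with 400 µM 5EU and 2 courses of 13 EU and 13 input libraries in all, up to 72 h. The 0 h libraries analysed here are from course 1 of each wild-type line only. ESC, CIMEF and DMEF have 2 mRNA libraries each, with no 5EU named in their labels. All cells were between passages 5 and 15, and CIMEF and DMEF received the same 5EU concentration as the knockout.

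MicroRNAs are cut from hairpin transcripts as a pair of strands. The strand that stays in Argonaute is called the guide, and the other, the passenger, is usually lost quickly. Targets are recognised mainly through the seed, bases 2 to 8. The miR-99/100 family restrains growth signalling through mTOR and the IGF1 receptor. The miR-125 family is the mammalian relative of worm lin-4 and is known for repressing Lin28, p53 and Bak1. Both families lie in clusters with let-7 hairpins and are typical of differentiated cells, fibroblasts among them.

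The mature sequences are shown because the strands fall into 4 seed groups, and because a single base separates strands that are counted apart. They are RefSeq sequences of build GRCm38.p6, 5′ to 3′, and capitals mark the seed.
mmu-miR-99a-5p: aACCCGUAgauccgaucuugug
mmu-miR-99b-5p: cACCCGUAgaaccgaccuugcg
mmu-miR-100-5p: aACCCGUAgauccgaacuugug
mmu-miR-125a-5p: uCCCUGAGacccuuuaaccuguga
mmu-miR-125b-5p: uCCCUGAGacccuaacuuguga
mmu-miR-125a-3p: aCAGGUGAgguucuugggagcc
mmu-miR-125b-2-3p: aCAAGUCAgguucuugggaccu
The 3 strands of the miR-99/100 family share the seed ACCCGUA, and the 5p strands of miR-125a and miR-125b share CCCUGAG. The 3p strands have seeds of their own. Counted from 1 at the 5′ end, miR-100-5p differs from miR-99a-5p only by U16A, so 21 of 22 bases are identical. MiR-99b-5p differs from miR-99a-5p by A1C, U11A, U16C and U21C. The 3p strands of miR-125a and miR-125b-2 are alike at 18 of 22 bases and differ by G4A, G7C, G20C and C22U. Since 5EU replaces uridine, the number of uridines bears on capture: 6 in miR-99a-5p, 3 in miR-99b-5p, 5 in miR-100-5p, 7 in miR-125a-5p, 6 in miR-125b-5p, 5 in miR-125a-3p and 6 in miR-125b-2-3p. Whether it moved any result was not tested. Reads of miR-99a-5p and miR-100-5p could be split wrongly by a single sequencing error, so low counts of either beside high counts of the other are uncertain.

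The hairpins lie in 3 clusters on the plus strand of GRCm38.p6, each in the order miR-99 or miR-100, let-7, miR-125. On chromosome 16 Mir99a (77598936 to 77599000), Mirlet7c-1 and Mir125b-2 (77646273 to 77646343) span 47408 bases, downstream of the lncRNA gene Mir99ahg (77329328 to 77558428). On chromosome 17 Mir99b (17830188 to 17830257), Mirlet7e and Mir125a (17830812 to 17830879) span only 692 bases and lie inside the protein-coding gene Spaca6 (17826085 to 17843010). On chromosome 9 Mir100 (41531425 to 41531504), Mirlet7a-2 and Mir125b-1 (41581926 to 41582002) span 50578 bases inside the lncRNA gene Mir100hg (41376526 to 41615185). MiR-125b-5p is made from both Mir125b-1 and Mir125b-2, and its counts cannot be assigned to either.

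Input libraries held 912688 to 9117300 miRNA counts and EU libraries 1196 to 2463188, so the EU values of ESC rest on few counts. The marker sums set ESC apart from the fibroblasts: the 5 ESC mRNA markers summed to 2291 and 2279 CPM in ESC, 22.9 and 15.7 CPM in CIMEF and 19.7 and 25.4 CPM in DMEF. The 5 fibroblast markers summed to 195 and 227 CPM in ESC, 15619 and 19928 CPM in CIMEF and 13925 and 11787 CPM in DMEF, and none was at 0. Of 9 markers of other cells, 2 to 5 were at 0 in each library, and the sum was 180 and 178 CPM in ESC, carried by Pecam1, Epcam and Tubb3, against 2.05 to 7.61 CPM in the fibroblasts. Knockout mRNA was not analysed here, so the deleted transcript could not be read, but miR-7a-5p, the miRNA that Cyrano removes, had 3850 CPM in the knockout against 101 and 105 CPM in CIMEF (log2 5.21, SE 0.43, edgeR adjusted p = 0.0113).

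The standing level of these miRNAs, meaning their share of input counts, set the fibroblasts apart from stem cells. All 7 strands together made up 12.3% of input miRNA counts in the knockout, 0.348% ± 0.0009 in ESC, 12.5% ± 1.75 in CIMEF and 14.5% ± 1.58 in DMEF (SD over courses, n = 2 for the wild-type lines). MiR-125b-5p alone carried most of it in the fibroblasts. Among all miRNAs it ranked 1 in the knockout, 113 in ESC and 2 in both CIMEF and DMEF.

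Levels per course are given as CPM, counts per 1000000 miRNA counts after TMM scaling of the summed course. MiR-125b-5p had 121611 CPM in the knockout, 888 and 497 CPM in ESC, 127975 and 97749 CPM in CIMEF and 123271 and 92724 CPM in DMEF. MiR-125a-5p, with the same seed, had 23065 CPM in the knockout, 1080 and 1309 CPM in ESC, 22658 and 28125 CPM in CIMEF and 14185 and 10801 CPM in DMEF. The 3 fibroblast cultures overlapped for miR-125b-5p, and ESC lay far below every fibroblast course for both.

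Within the miR-99/100 family the strands with nearly the same sequence had different profiles. MiR-99a-5p had 10837 CPM in the knockout, 0.35 and 0.22 CPM in ESC, 2435 and 3113 CPM in CIMEF and 996 and 767 CPM in DMEF. MiR-100-5p, which differs from it by U16A, had 3350 CPM in the knockout, 1.45 and 10.4 CPM in ESC, 6159 and 4973 CPM in CIMEF and 3424 and 2196 CPM in DMEF. So the knockout lay above every other course for miR-99a-5p and below both CIMEF courses for miR-100-5p. MiR-99b-5p, from the short cluster in Spaca6, had 8551 CPM in the knockout, 700 and 845 CPM in ESC, 7707 and 9252 CPM in CIMEF and 6446 and 5201 CPM in DMEF, a far smaller distance between ESC and fibroblasts.

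The 3p strands were scarce everywhere. MiR-125a-3p had 164 CPM in the knockout, 16.2 and 16.3 CPM in ESC, 130 and 170 CPM in CIMEF and 131 and 107 CPM in DMEF. MiR-125b-2-3p had 141 CPM in the knockout, no count in either ESC course, 44.2 and 51.5 CPM in CIMEF and 18.0 and 14.5 CPM in DMEF. Since miR-125b-5p comes from both loci and miR-125b-2-3p from Mir125b-2 alone, the strand made from Mir125b-1, miR-125b-1-3p, is of use beside it: it had 488 CPM in the knockout, 12.1 and 4.46 CPM in ESC, 559 and 461 CPM in CIMEF and 816 and 732 CPM in DMEF. MiR-125b-2-3p and miR-125b-1-3p thus ran in opposite orders between CIMEF and DMEF.

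The order of levels within a line was the same in CIMEF and DMEF: miR-125b-5p, miR-125a-5p, miR-99b-5p, miR-100-5p, miR-99a-5p, miR-125a-3p and miR-125b-2-3p, and no neighbours overlapped between courses. In the knockout miR-99a-5p moved up to place 3. In ESC miR-125a-5p led, and miR-99b-5p and miR-125b-5p overlapped between courses. These are ranks of read counts, which ligation can bias between miRNAs.

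**Figure D1:**
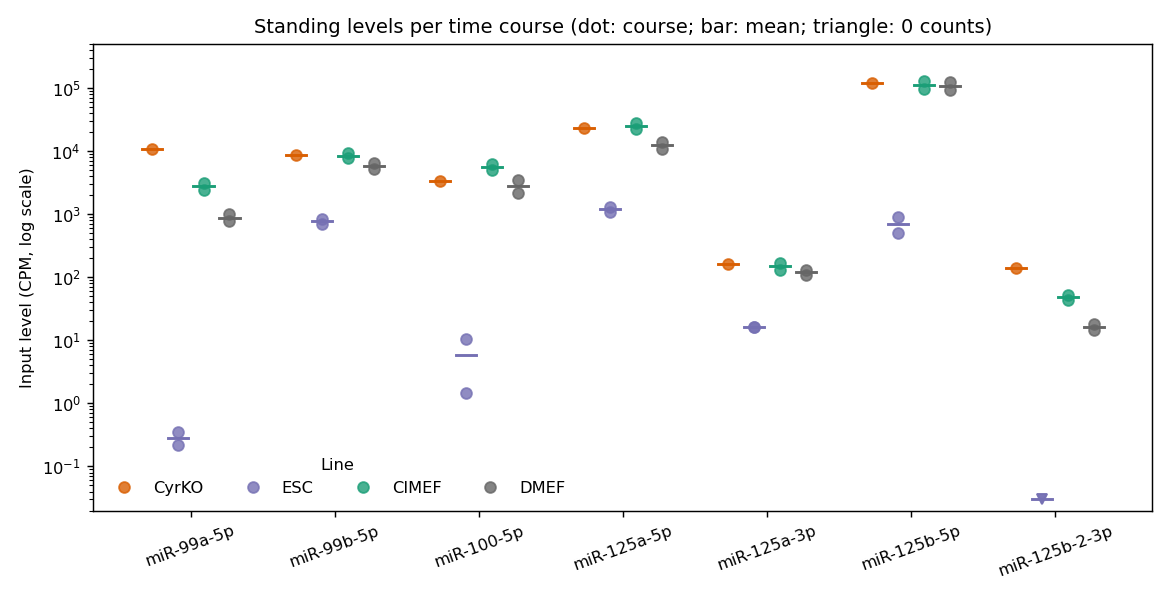
Input level in CPM (log axis) of the 7 strands in each time course, with CyrKO, ESC, CIMEF and DMEF from left to right, dots for courses, bars for means and triangles for 0 counts. ESC dots lie below those of every fibroblast course for all 7 strands, with miR-99a-5p at 0.35 and 0.22 CPM, and miR-99a-5p is the strand for which the knockout, at 10837 CPM, stands highest over CIMEF.

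All 7 strands were lower in ESC than in DMEF in the edgeR quasi-likelihood test at an adjusted p below 0.05, where 47.8% of the 812 miRNAs tested were called, 22.8% higher and 25.0% lower. The log2 difference was -7.31 (SE 0.47, adjusted p = 0.000255) for miR-125b-5p, -3.41 (SE 0.31, adjusted p = 0.00069) for miR-125a-5p, -11.60 (SE 0.59, adjusted p = 0.000198) for miR-99a-5p and -8.93 (SE 1.18, adjusted p = 0.00212) for miR-100-5p. Of the 7, the smallest differences were those of miR-125a-5p and the other 2 listed strands from the Spaca6 cluster. These were -2.94 (SE 0.32, adjusted p = 0.00117) for miR-99b-5p and -2.90 (SE 0.49, adjusted p = 0.00502) for miR-125a-3p. Let-7e-5p, from that cluster but not listed, lay further apart, with 77.1 and 206 CPM in ESC against 4839 and 4224 CPM in DMEF. MiR-125a-3p lost its call without ESC course 1 (adjusted p = 0.0624) and without ESC course 2 (0.0617). MiR-125b-2-3p had 0 counts in ESC and 732 in DMEF, which makes it at least 263-fold lower against a floor of 3 counts over the ESC libraries. The median over the 7 was -7.31, against 0.52 over all miRNAs tested. That median and the count of 7 include miR-99a-5p and miR-125b-2-3p. These 2 entered the test only through the fibroblasts, where they are high, so they had to differ and their calls are no support.

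Against CIMEF all 7 were lower in ESC too, where 56.5% of miRNAs were called and 29.2% were lower. The log2 difference was -7.33 (SE 0.47) for miR-125b-5p, -4.39 (SE 0.33) for miR-125a-5p, -3.19 (SE 0.50) for miR-125a-3p, -13.21 (SE 0.62) for miR-99a-5p, -3.44 (SE 0.33) for miR-99b-5p and -9.87 (SE 1.23) for miR-100-5p, with edgeR adjusted p between 0.000127 and 0.00317. Both comparisons share the ESC libraries. Here too miR-99a-5p and miR-125b-2-3p entered the test only through the fibroblasts, so that they had to differ. Scaled by the synthetic library standards, which ran between 36.1 and 32193 counts per 1000000 miRNA counts over the 7 courses, the log2 difference from DMEF was -10.13 to -18.93 beside a median of -6.46 over all miRNAs, and 0 of 7 passed. In bulk RNA, fewer cells of a type and less RNA per cell cannot be told apart.

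Between CIMEF and DMEF none of the 7 passed in edgeR, where 0.0% of miRNAs were called, 3 of the 7 had an unadjusted p below 0.05 and DESeq2 called 3, beside 110 of 780 miRNAs (14.1%). The estimates were positive for miR-99a-5p (log2 1.61, SE 0.38, adjusted p = 0.119), miR-125b-2-3p (1.52, SE 0.51, adjusted p = 0.209) and miR-125a-5p (0.98, SE 0.29, adjusted p = 0.156), the strands that DESeq2 called. For these 3, and for miR-99b-5p and miR-100-5p, both CIMEF courses lay above both DMEF courses, while the courses overlapped for miR-125b-5p and miR-125a-3p. How many of all miRNAs stood apart in this way was not counted, so it is a description only. MiR-125b-5p had a log2 difference of 0.02 (SE 0.36), miR-99b-5p of 0.50, miR-100-5p of 0.94 and miR-125a-3p of 0.29. Without CIMEF course 1 edgeR called the same 3 strands, with adjusted p of 0.0145 for miR-99a-5p, 0.047 for miR-125a-5p and 0.0493 for miR-125b-2-3p, beside 25.8% of miRNAs.

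Between the knockout and CIMEF none of the 7 passed in edgeR, where 0.862% of miRNAs were called, 2 of the 7 had an unadjusted p below 0.05 and DESeq2 called 1, beside 4.19% of miRNAs. MiR-99a-5p had a log2 difference of 1.95 (SE 0.44, adjusted p = 0.209) and miR-125b-2-3p, from the same cluster, of 1.55 (SE 0.58, adjusted p = 0.443). MiR-214-3p, a fibroblast miRNA from elsewhere in the genome, had 1.50 (adjusted p = 0.209) beside them. The remaining strands had -0.75 (miR-100-5p), -0.15 (miR-125a-5p), 0.09 (miR-125b-5p), 0.11 (miR-125a-3p) and -0.00 (miR-99b-5p). Without CIMEF course 2 edgeR called 1, miR-99a-5p (adjusted p = 0.0196), beside 20.7% of miRNAs. The knockout is 1 course, so its spread is taken from the other lines, and knockout and culture cannot be told apart. Scaled by the library standards, the estimate for miR-99a-5p was -4.55 beside a median of -6.38 over all miRNAs, with no call.

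Library by library the same picture held for miR-99a-5p, in unscaled CPM. It ran from 4054 to 9309 CPM (median 8636) over the 6 knockout input libraries, from 0 to 1.05 CPM (median 0.377) over 13 ESC libraries, from 1204 to 2701 CPM (median 2254) over 15 CIMEF libraries and from 845 to 1261 CPM (median 949) over 13 DMEF libraries. The knockout and CIMEF libraries did not overlap, nor did those of the knockout and DMEF. The 6 knockout libraries are of 1 culture and are not replicates, and such separation was not counted over all miRNAs.

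Which other miRNAs share these profiles was asked over 470 miRNAs with a mean of at least 10 CPM in the 7 courses, as the root mean square distance of centred log2 CPM. MiR-99b-5p and miR-125a-3p, from the same 692-base cluster, were each other's nearest (distance 0.15). The nearest to miR-125a-5p was miR-224-5p (0.20), to miR-125b-5p miR-34c-5p (0.44), to miR-100-5p let-7c-5p (0.42), to miR-99a-5p miR-214-5p (0.54) and to miR-125b-2-3p miR-181a-1-3p (0.32). With 7 points dominated by the step between ESC and fibroblasts, these distances are descriptions.

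Early label was compared with the standing pool to see which strands take a larger share of new RNA than of old. In both fibroblast lines miR-125a-3p and miR-125b-2-3p were higher in early EU counts than in input, and miR-99b-5p and miR-125a-5p were lower. EU and input counts were summed over 1 and 2 h, and the knockout, whose libraries here begin at 2 h, was left out.

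MiR-125a-3p had 1075 and 1559 CPM in CIMEF EU libraries against 106 and 140 CPM in input, and 1325 and 905 CPM in DMEF EU libraries against 150 and 145 CPM in input. MiR-125b-2-3p had 292 and 356 CPM in CIMEF EU libraries against 37.0 and 37.2 CPM in input, and 94.9 and 125 CPM in DMEF EU libraries against 18.0 and 19.7 CPM in input. These CPM are unscaled shares of the miRNA counts of each sum. For both strands every EU sum lay above every input sum of its line.

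The 5p strands ran the other way. MiR-99b-5p had 1097 and 1182 CPM in CIMEF EU libraries against 6940 and 7298 CPM in input, and 1149 and 1111 CPM in DMEF EU libraries against 6200 and 6037 CPM in input. MiR-125a-5p had 3323 and 4692 CPM in CIMEF EU libraries against 18687 and 22598 CPM in input, and 2758 and 3653 CPM in DMEF EU libraries against 14062 and 12514 CPM in input. MiR-125b-5p had 26330 and 24436 CPM in CIMEF EU libraries against 111461 and 75954 CPM in input, and 27397 and 49204 CPM in DMEF EU libraries against 126991 and 104623 CPM in input. No EU sum of these strands reached an input sum of the same line. MiR-99a-5p came nearest to parity, with 2425 and 1977 CPM in CIMEF EU libraries against 2263 and 2243 CPM in input.

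In CIMEF edgeR called 5 of 7 strands, 2 higher and 3 lower, where 24.4% of 603 miRNAs were called (13.9% higher, 10.4% lower). Its log2 differences use TMM scaling between EU and input, so they are lower than the ratios of the CPM above. They were 2.77 (SE 0.49, adjusted p = 0.00375) for miR-125a-3p and 2.46 (SE 0.58, adjusted p = 0.0181) for miR-125b-2-3p, and -3.33 (SE 0.33, adjusted p = 0.000238) for miR-99b-5p, -3.02 (SE 0.42, adjusted p = 0.00155) for miR-125a-5p and -2.58 (SE 0.74, adjusted p = 0.0291) for miR-125b-5p. MiR-99a-5p (-0.75, SE 0.55) and miR-100-5p (-1.89, SE 1.04) did not pass. EU and input of a course come from the same culture, and with the course as a block 7 passed, beside 51.4% of all miRNAs, miR-99a-5p with adjusted p = 0.016 and miR-100-5p with adjusted p = 1.0e-10. The median over the 7 was -1.89, against -0.44 over all miRNAs.

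In DMEF 4 of 7 passed, 2 higher and 2 lower, where 18.2% of miRNAs were called (12.4% higher, 5.8% lower). MiR-125a-3p had a log2 difference of 2.67 (SE 0.49, adjusted p = 0.00565) and miR-125b-2-3p of 2.33 (SE 0.58, adjusted p = 0.0306), while miR-99b-5p had -2.67 (SE 0.32, adjusted p = 0.000996) and miR-125a-5p -2.28 (SE 0.41, adjusted p = 0.0052). MiR-125b-5p (-1.82), miR-100-5p (-1.41) and miR-99a-5p (-1.19) did not pass, and with the course as a block 7 passed, beside 47.1% of all miRNAs. MiR-125b-2-3p lost its call with no filter (adjusted p = 0.0639), over 1, 2 and 4 h (0.0612) and without ESC course 1 (0.0533) or 2 (0.0519). The calls rest on both DMEF courses. Without either one, which leaves 1 DMEF course in the fit, each direction was kept in DMEF and CIMEF.

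The other strands of these hairpins and of their let-7 neighbours showed which side of a hairpin was high in early label. In CIMEF the log2 difference was 3.90 (SE 0.99, adjusted p = 0.0253) for miR-99a-3p, 3.28 (SE 0.63, adjusted p = 0.00537) for miR-125b-1-3p, 1.41 (SE 0.44, adjusted p = 0.0423) for miR-99b-3p, 5.64 (SE 0.76, adjusted p = 0.00216) for let-7c-1-3p, 3.70 (SE 0.67, adjusted p = 0.0071) for let-7a-2-3p and 3.01 (SE 0.71, adjusted p = 0.015) for let-7e-3p. MiR-100-3p, at -0.31 (SE 0.72), was the exception among the 3p strands. The let-7 guides let-7c-5p (-0.26), let-7e-5p (-1.08) and let-7a-5p (-0.35), the last of which has further loci, did not pass.

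Unlabelled RNA that is carried into the EU libraries was measured at 0 h, in course 1 only. Libraries differ in depth, so shares are given as unscaled CPM. In CIMEF course 1 miR-125b-5p had 53623 CPM at 0 h, from 1144 counts, and 21107 CPM at 1 h, and miR-125a-5p had 7265 CPM at 0 h and 2133 CPM at 1 h. MiR-125a-3p had 46.9 CPM at 0 h and 877 CPM at 1 h, and miR-125b-2-3p had 46.9 CPM at 0 h and 538 CPM at 1 h, with a single count behind either 0 h value. In DMEF course 1 miR-125b-5p had 78691 CPM at 0 h and 22896 CPM at 1 h, and miR-125a-3p had 442 CPM at 0 h, from 1 count, and 1760 CPM at 1 h. In these libraries the 5p strands of miR-125 held a larger share at 0 h than at 1 h, and miR-125a-3p a smaller one. What part carry-over has in the early-label values was not tested.

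**Figure D2:**
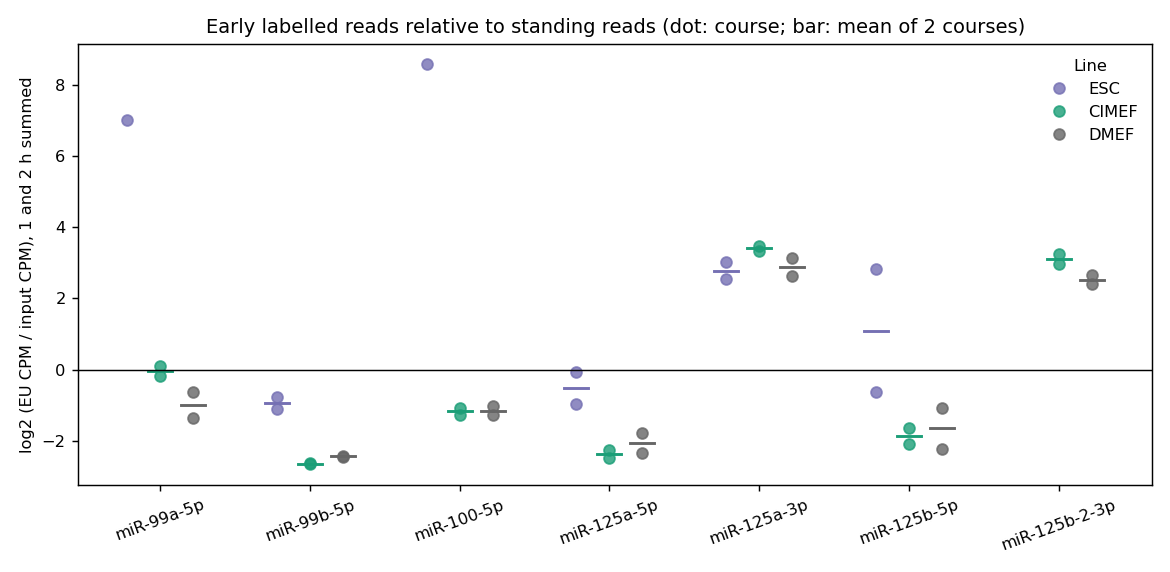
Log2 ratio of EU CPM to input CPM, unscaled, with 1 and 2 h summed, for the 7 strands in ESC, CIMEF and DMEF from left to right, with dots for courses and bars for the mean where both courses have counts. In CIMEF and DMEF miR-125a-3p and miR-125b-2-3p lie above 0 and the 5p strands lie below or near it, and in ESC miR-100-5p has a dot for course 2 only, at 1304 CPM in EU against 3.40 CPM in input.

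In ESC 3 of 7 strands passed in edgeR, 1 higher and 2 lower, where 21.9% of miRNAs were called (4.31% higher, 17.6% lower). MiR-99b-5p (log2 -2.19, SE 0.33, adjusted p = 0.00686) and miR-125a-5p (-1.74, SE 0.41, adjusted p = 0.021) were lower in EU, and miR-100-5p was higher (7.02, SE 1.35, adjusted p = 0.0129). MiR-125a-3p (1.51, SE 0.54, adjusted p = 0.0728) and miR-125b-5p (0.25, SE 0.71) did not pass. MiR-99a-5p had 0 and 1 EU counts beside 3 and 1 input counts, and did not pass (3.85, SE 1.32, adjusted p = 0.159), though DESeq2 called it (5.20, adjusted p = 0.010). MiR-125b-2-3p had 0 counts in both kinds of library. The median over all miRNAs was -1.51 in this contrast. With relative log expression scaling in place of TMM that median was -0.45, 36 miRNAs were higher and 9 lower, against 26 and 106 with TMM, and miR-99b-5p had -1.15 (adjusted p = 0.054), miR-125a-5p -0.71 (adjusted p = 0.336) and miR-125a-3p 2.56 (adjusted p = 0.0149). Some fits left only 1 course of a line, among them those without ESC course 1, ESC course 2 or DMEF course 2. In these, almost no miRNA was called at all, so the loss of calls is not particular to these strands. MiR-99b-5p and miR-125a-5p stayed lower in EU in each of them.

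The call for miR-100-5p rests on ESC course 2. Its EU libraries there held 19, 37, 17, 19, 18 and 19 counts from 1 to 24 h, against 0 in every EU library of course 1, and without ESC course 2 the log2 difference was -5.20. MiR-125b-5p had 73, 124, 90, 153, 74 and 78 counts in EU libraries of ESC course 2, and 5, 10, 14, 35, 48 and 71 in those of course 1. MiR-1a-3p, a muscle miRNA, was also higher in course 2, with 471, 559, 85, 190, 14 and 290 counts in its EU libraries and 0 or 1 in those of course 1. Within course 2 its counts did not follow those of the other 2 strands from time to time. In the 8 h input library of ESC course 2 miR-1a-3p had 2263 counts and miR-100-5p had 182, against 0 to 15 and 8 to 15 in the other input libraries of that course. MiR-214-3p, the fibroblast marker, had 0 counts in all ESC EU libraries. What part such RNA has in the result was not tested.

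The share of the 3p strand among counts of both arms of the miR-125a hairpin was high in new RNA and low in old. In CIMEF course 1 EU libraries it was 29.1, 23.3, 19.3, 11.5, 4.09, 2.95 and 2.83% at 1, 2, 4, 8, 24, 72 and 168 h, against 0.469 to 0.743% in input. In CIMEF course 2 EU libraries it was 34.7, 23.5, 14.1, 5.21, 2.52, 1.75 and 1.16% at the same times, against 0.563 to 0.662% in input. In the knockout EU libraries it was 41.8, 16.9, 8.56, 2.56, 2.20 and 2.06% from 2 to 168 h, against 0.648 to 0.825% in input. Each of these courses fell at every step, and its last EU library was still above every input library.

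DMEF gave the same shape on a shorter scale. DMEF course 1 EU libraries had 46.6, 26.9, 13.1, 7.20, 2.68 and 1.98% from 1 to 72 h, against 0.764 to 1.09% in input, and DMEF course 2 EU libraries had 31.8, 12.01, 4.78, 3.16, 1.86 and 1.59% at those times, against 0.762 to 1.21% in input. The share at 2 h rested on 151 3p beside 496 5p counts in CIMEF course 1 and on 510 3p beside 711 5p counts in the knockout (95% Wilson intervals 20.2 to 26.7% and 39.0 to 44.6%). In ESC it rested on 1 of 16 and 5 of 36 counts. Intervals cover counting error only.

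Over the 7 courses log2 of the 3p to 5p ratio at 2 h was 4.62 higher in EU than in input (SD 1.65, higher in 7 of 7 courses). The exact two-sided sign-flip permutation test gave p = 0.0156, the smallest that 7 courses allow. For miR-125b-2-3p against miR-125b-5p the mean difference was 4.29 (SD 0.99, higher in 5 of 5 courses), with an exact permutation p = 0.0625, the smallest that 5 courses allow. The same measure was 3.71 for miR-99b (7 of 7), 4.32 for miR-99a (5 of 5), 4.34 for miR-125b-1-3p (5 of 6) and 1.79 for miR-100 (5 of 5). Of these 6 pairs miR-100 had the smallest difference between arms.

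The share of miR-125b-2-3p in input was not level in the knockout. It was 0.143, 0.157, 0.165, 0.150, 0.0754 and 0.0432% of both strands from 2 to 168 h in knockout input libraries, against 0.0272 to 0.0446% in CIMEF course 1 and 0.0416 to 0.0678% in CIMEF course 2. In knockout EU libraries it was 5.56, 1.71, 0.945, 0.273, 0.0662 and 0.0499%. The knockout began above CIMEF and ended within its range.

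**Figure D3:**
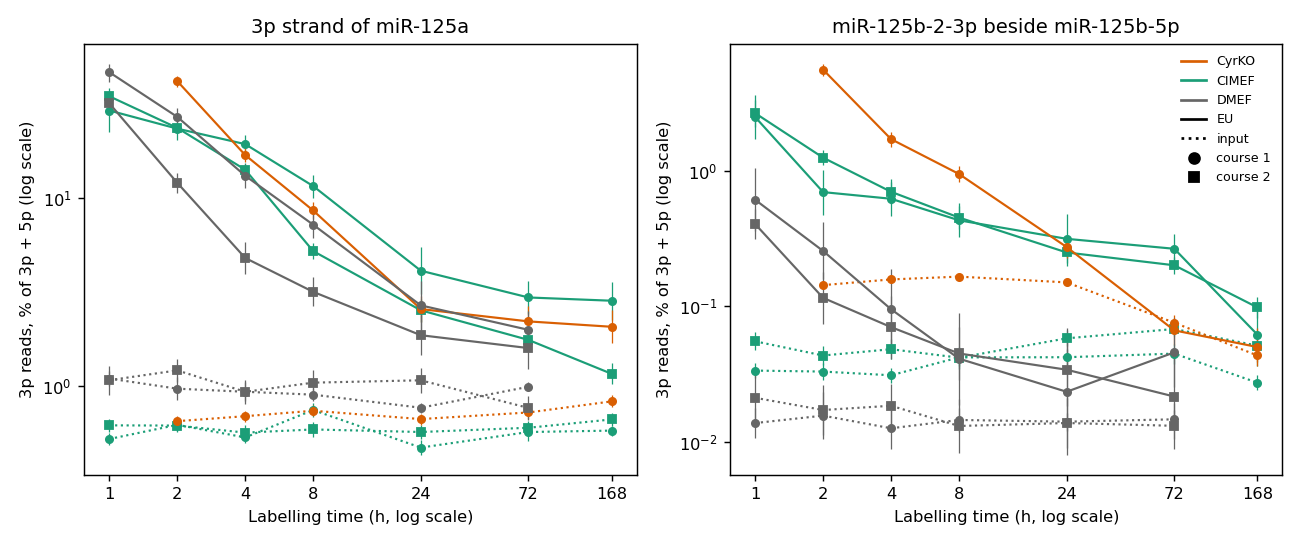
Share of the 3p strand (%, log axis) for miR-125a and for miR-125b-2-3p against miR-125b-5p over hours of labelling, by line and course, with EU and input libraries drawn as solid and dotted lines and bars for 95% Wilson intervals. EU shares start high, at 41.8% for miR-125a in the knockout at 2 h, and fall toward the input shares of 0.469 to 1.21% in the fibroblasts, and the knockout input of miR-125b-2-3p drops after 24 h.

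How fast label filled each pool was read from EU counts per count of 3 standards found almost only in EU libraries, as a percent of the value at the last time. The 3p strands filled within hours and the miR-125 guides over days. In the knockout miR-125a-3p stood at 69.2% of its last value at 2 h and miR-125b-2-3p at 114%, against 16.5% for miR-99a-5p, 5.20% for miR-100-5p, 4.91% for miR-99b-5p, 2.03% for miR-125a-5p and 0.964% for miR-125b-5p, with a median of 7.43% over all miRNAs. In CIMEF course 2 the same order gave 47.5% and 19.1% for the 3p strands and 3.22, 2.91, 3.11, 1.81 and 1.48% for the 5p strands, with a median of 4.77%. In the knockout miR-99a-5p stood at 166% of its last value at 24 h, and its input was 8645 CPM at 24 h and 4054 CPM at 168 h.

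Half-lives came from an approach-to-equilibrium fit, y = A(1 - exp(-kt)), in each course, and a half-life beyond the last time is an extrapolation. MiR-125b-5p reached the end of the search grid, 1680 h, in the knockout, and had 5.93 and 0.441 h in ESC, 211 and 885 h in CIMEF and 63.0 and 19.4 h in DMEF. MiR-125a-5p had 49.0 h in the knockout, 9.12 and 12.9 h in ESC, 127 and 162 h in CIMEF and 331 and 32.6 h in DMEF. Both were among the longest of the 274 to 305 miRNAs with an inner value in a CIMEF course, at ranks 24 and 2 for miR-125b-5p and 47 and 18 for miR-125a-5p. Medians over all miRNAs were 16.6 h in the knockout, 7.42 and 8.09 h in ESC, 48.0 and 29.5 h in CIMEF and 12.3 and 9.46 h in DMEF.

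The miR-99/100 strands lay closer to the middle. MiR-99a-5p had 8.76 h in the knockout, 20.3 and 56.0 h in CIMEF and 26.2 and 16.2 h in DMEF. MiR-99b-5p had 23.7 h in the knockout, 3.25 and 9.94 h in ESC, 48.0 and 57.2 h in CIMEF and 38.3 and 30.1 h in DMEF. MiR-100-5p had 19.0 h in the knockout, 46.9 and 62.5 h in CIMEF and 27.3 and 16.5 h in DMEF. No fit was had for miR-99a-5p in ESC, and that of miR-100-5p in ESC course 2 ended at the lower end of the grid, 0.25 h.

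The 3p strands were at the short end. MiR-125a-3p had 0.842 h in the knockout, 6.57 and 2.72 h in CIMEF and 1.05 and 0.934 h in DMEF, at rank 273 of 287 in the knockout. MiR-125b-2-3p ended at the grid's 0.25 h in the knockout and had 11.4 and 7.50 h in CIMEF and 0.692 h in DMEF course 2. MiR-125a-5p, from the same hairpin as miR-125a-3p, was longer in each of the 5 fibroblast courses.

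Between CIMEF and DMEF 2 of 6 strands with values had longer half-lives in limma, where 68.0% of 169 miRNAs did. MiR-125b-5p had a log2 difference of 3.63 (SE 0.73, adjusted p = 1.5e-05) and miR-125a-3p of 2.09 (SE 0.73, adjusted p = 0.00961). The remaining strands had 1.35 (miR-100-5p), 0.71 (miR-99a-5p), 0.63 (miR-99b-5p) and 0.46 (miR-125a-5p), and the median over the 6 was 1.03, against 2.03 over all miRNAs. MiR-100-5p passed with the replicate block (adjusted p = 0.0437), with no subtraction (0.0311), after division by the input share (2.04, adjusted p = 0.00917) and with the library standards (1.96, adjusted p = 0.0372), and had -0.54 without the last time. Most miRNAs were called in those settings too: 77.5% with the block, 75.4% with no subtraction, 76.6% with the input share and 81.9% with the library standards. MiR-125a-5p had -1.21 without DMEF course 2 and 2.13 without DMEF course 1, so its sign rests on 1 course, and it passed with the library standards (2.03, adjusted p = 0.0318). MiR-99a-5p had -0.02 without CIMEF course 2. The fit shares 1 SE over all miRNAs of a contrast, so its p-values do not reflect how far the courses of a strand disagree. MiR-125a-3p lost its call without CIMEF course 1 (adjusted p = 0.0829), without DMEF course 1 (0.0755) and without DMEF course 2 (0.119). A half-life in dividing cells includes dilution by growth.

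Between ESC and DMEF all 3 strands with values had shorter half-lives, where 21.6% of 74 miRNAs were called and 12.2% were shorter. The log2 difference was -4.43 (SE 0.60, adjusted p = 9.36e-10) for miR-125b-5p, -3.26 (SE 0.60, adjusted p = 6.35e-06) for miR-125a-5p and -2.58 (SE 0.60, adjusted p = 0.000637) for miR-99b-5p, against a median of -0.59 over all miRNAs. Here too the SE is shared over all miRNAs, so these p-values do not reflect how far the courses of a strand disagree. Those calls ended with the course number as a block, where the adjusted p were 0.0868, 0.199 and 0.138. They also ended after division by the input share and with the library standards. In these settings no miRNA at all was called, of 74, 76 and 65 tested. Without the last time none of these strands could be tested. With the library standards miR-125a-5p had 0.18 beside a median of 1.53 over all miRNAs. Without ESC course 1 miR-99b-5p lost its call (adjusted p = 0.0926), and without DMEF course 1 miR-125a-5p did (-1.59, adjusted p = 0.287). The miR-125b-5p value of ESC course 2, 0.441 h, comes from the course with the miR-1a-3p counts.

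Between the knockout and CIMEF none of 5 strands passed in limma, where 2.97% of miRNAs were called and 1 of the 5 had an unadjusted p below 0.05. The log2 differences were -2.33 (miR-125a-3p), -1.94 (miR-99a-5p), -1.55 (miR-125a-5p), -1.51 (miR-100-5p) and -1.15 (miR-99b-5p), with an SE of 1.06, beside a median of -1.42 over all miRNAs. Scaled by the library standards 1 passed, miR-99a-5p, where 1 miRNA was longer and 90 were shorter of 194 tested (46.9%).

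The fits assume that standing levels stay level while cells hold 5EU, and this was looked at in the input libraries. In the knockout miR-125b-5p had 78152, 74789, 71442, 75169, 119583 and 131787 CPM from 2 to 168 h, unscaled, so it was level to 24 h and higher after that. MiR-99a-5p had 9309, 8628, 8692, 8645, 7263 and 4054 CPM, and miR-125b-2-3p had 112, 118, 118, 113, 90.2 and 57.0 CPM, so both were lower at the last 2 times. In CIMEF miR-125b-5p lay between 95990 and 115425 CPM in course 1 and between 71723 and 86911 CPM in course 2.

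The slope of log2 level on log2(hours + 1) was 0.21 (SE 0.04, edgeR adjusted p = 0.00418) for miR-125b-5p in the knockout, the only 1 of 7 strands to pass there, where 18.4% of miRNAs were called (12.1% higher, 6.33% lower). Without the 168 h library its adjusted p was 0.0741 and 0 of 7 passed. MiR-99a-5p (-0.10, adjusted p = 0.107) and miR-125b-2-3p (-0.09, adjusted p = 0.17) did not pass, nor did miR-100-5p (-0.05, adjusted p = 0.204), miR-125a-3p (0.05), miR-99b-5p (-0.01) and miR-125a-5p (0.01). MiR-100-5p, from the chromosome 9 cluster, had 2900 CPM at 2 h and 1676 CPM at 168 h. The strand miR-125b-1-3p, from that cluster too, rose (0.22, adjusted p = 0.00414), with 299 CPM at 2 h and 557 CPM at 168 h, while from the chromosome 16 cluster miR-99a-3p (-0.18, adjusted p = 0.0221) and let-7c-1-3p (-0.38, adjusted p = 0.00208) fell. Without the 168 h library miR-125b-1-3p (adjusted p = 0.0698) and miR-99a-3p (0.115) lost their calls. MiR-214-3p fell as well (-0.26, adjusted p = 0.00219), with 38369 CPM at 2 h and 8988 CPM at 168 h.

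None of the strands tested passed in CIMEF (7 tested, 2.67% of miRNAs called, 2.29% higher and 0.382% lower), DMEF (7 tested, 2.59% called, 1.94% higher and 0.647% lower) or ESC (5 tested, 1.77% called) in edgeR, none had an unadjusted p below 0.05, and DESeq2 called 0 of them. With the course as a block, miR-100-5p fell in CIMEF (slope -0.05, adjusted p = 0.0041), beside 26% of miRNAs called. MiR-99b-5p rose in DMEF (slope 0.05, adjusted p = 0.0221), beside 22.1%. Without CIMEF course 1, 3 passed in CIMEF as rising, with slopes of 0.08 for miR-99a-5p, 0.06 for miR-125b-5p and 0.11 for miR-125b-2-3p. There 92 of 449 miRNAs (20.5%) were called, 53 higher and 39 lower.

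The slope of miR-125b-5p was 0.16 higher in the knockout than in CIMEF over their shared times (SE 0.04, edgeR adjusted p = 0.020), the only 1 of 7 to pass, where 4.78% of miRNAs were called (3.36% higher, 1.42% lower). Its adjusted p was 0.081 without the last time and 0.22 without CIMEF course 1, where miR-99a-5p (-0.21) and miR-125b-2-3p (-0.25) passed instead, each with adjusted p = 0.043. MiR-125b-1-3p had 0.22 (adjusted p = 0.00857, and 0.12 without CIMEF course 1), miR-125b-2-3p -0.17 (adjusted p = 0.0945) and miR-99a-5p -0.11 (adjusted p = 0.396). The remaining strands had 0.02 (miR-99b-5p), -0.02 (miR-100-5p), -0.04 (miR-125a-5p) and 0.01 (miR-125a-3p).

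**Figure D4:**
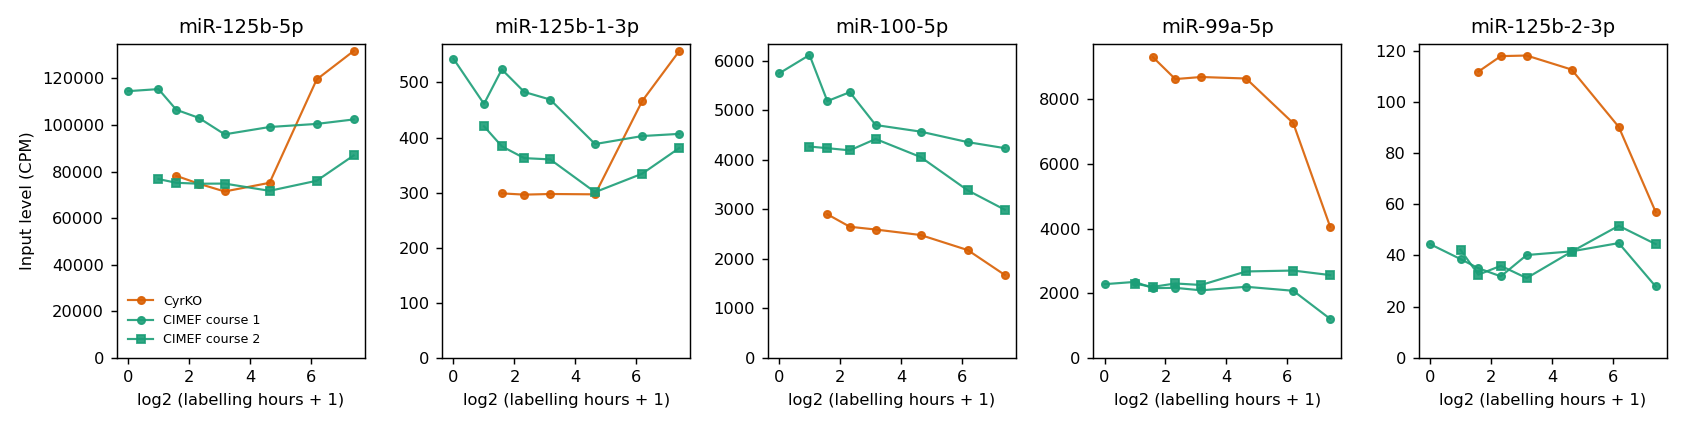
Input level (CPM, unscaled, linear axis from 0) against log2(hours + 1) of labelling in the knockout and both CIMEF courses, for 4 of the strands and miR-125b-1-3p. In the knockout miR-125b-5p is highest at the last times, at 119583 and 131787 CPM, and miR-99a-5p is lowest there, at 7263 and 4054 CPM.

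Transcripts around the clusters were read from the mRNA libraries of the wild-type lines. Mir99ahg (ENSMUSG00000090386), the lncRNA gene upstream of Mir99a, had 0.103 and 0.146 CPM in ESC, 14.2 and 7.56 CPM in CIMEF and 1.25 and 1.30 CPM in DMEF. It was lower in ESC than in DMEF (log2 -3.25, SE 0.53, edgeR adjusted p = 0.00158), where 60.8% of 18094 genes were called and 30.5% were lower, and higher in CIMEF than in DMEF (3.13, SE 0.41, adjusted p = 0.00229), where 19.5% were higher. Spaca6 (ENSMUSG00000080316), which encodes a sperm protein and contains the miR-99b cluster, had 1.90 and 2.22 CPM in ESC, 105 and 55.1 CPM in CIMEF and 21.9 and 27.6 CPM in DMEF. Its log2 difference was -3.53 (SE 0.36, adjusted p = 0.000169) in ESC and 1.72 (SE 0.32, adjusted p = 0.00658) in CIMEF, both against DMEF. Both transcripts were ordered as CIMEF, DMEF, ESC. Mir100hg was not matched by symbol in the mRNA table.

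Known targets were taken from lists for each family, as messages that the literature names and not as predictions. For miR-99/100, 11 of 12 were tested, with 3 higher and 5 lower in ESC against DMEF, beside 30.3% higher and 30.5% lower of all genes. Igf1r, the IGF1 receptor, had 34.3 and 34.5 CPM in ESC and 618 and 480 CPM in DMEF (log2 -3.93, SE 0.20, edgeR adjusted p = 7.47e-06). Bmpr2, a BMP receptor (-4.04), Fzd8, a Wnt receptor (-3.31), and Trib2, a pseudokinase (-2.38), were lower as well. The remaining lower target, the growth factor receptor gene Fgfr3, had the largest difference of the list (-4.66, SE 0.89, adjusted p = 0.00332). It was named after its value was seen. Rptor, which brings substrates to mTOR, was higher (0.75, SE 0.14, adjusted p = 0.00325), as were Mtor itself (0.52, adjusted p = 0.0162) and the chromatin remodeller Smarca5 (0.75), both named after their values were seen. The median was -0.22 over the list and 0.06 over all genes.

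For miR-125, 19 of 20 were tested, with 7 higher and 5 lower in ESC against DMEF. Lin28a, which blocks let-7 maturation, had 547 and 515 CPM in ESC and 3.74 and 4.05 CPM in DMEF (log2 7.15, SE 0.23, adjusted p = 2.95e-06), and Lin28b followed it (6.56, SE 0.30, adjusted p = 4.99e-06). Erbb3, a growth factor receptor (5.29), and Arid3b, a DNA-binding protein (3.63), were higher too, and the receptor gene Erbb2 was lower (-2.32). The median was 0.47 over the list. Lin28a and Lin28b are also stem-cell genes, so the list is mixed with cell identity.

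Between CIMEF and DMEF, where 40.6% of genes were called, the miR-99/100 list had 4 higher and 3 lower and the miR-125 list 4 higher and 9 lower, with medians of -0.18 and -0.50 against 0.00 over all genes. Of the miR-99/100 list, Plk1, a mitotic kinase, had 31.6 and 30.9 CPM in CIMEF and 108 and 151 CPM in DMEF (log2 -2.02, SE 0.19, adjusted p = 0.000933), and Igf1r was lower (-0.77), while Fzd8 (1.24) and Bmpr2 (0.74) were higher. Of the miR-125 list, the apoptosis gene Bak1 had 33.7 and 38.1 CPM in CIMEF and 138 and 176 CPM in DMEF (-2.10, SE 0.17, adjusted p = 0.000663). The NF-kB inhibitor Tnfaip3 (-2.93, SE 0.30) and Trp53, which encodes p53 (-1.05), were lower, and the apoptosis gene Bmf (2.84, SE 0.31) and the BMP receptor gene Bmpr1b (2.50, SE 0.29) were higher. Of both lists together 20 passed. Without either DMEF library, which leaves a single one in the fit, fewer listed targets passed. A smaller share of all genes passed there too, so the fall is not particular to these lists. The part of the miRNAs in these values was not tested.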

How the data were processed

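Per the file headers and values, the authors deposited raw read counts, 1 for each of 1013 miRNAs or of 54532 genes, in 15 tables of 105 samples. Per the submitters' processing notes, cutadapt was used for all 105 samples and STAR 2.4 and HTSeq 0.9.1 for 81, which do not include the knockout and ESC course 2. Whether the random adapter bases served to remove duplicates is not given in the sources used here. For DMEF course 2, 5 EU samples are second runs, and its table has 1 column per time, taken as 1 library. Counts were summed per course, or kept by library for drift, and tested with edgeR 4.0.16 (TMM, filterByExpr, quasi-likelihood) in R 4.3.3, fitted over all features with Benjamini-Hochberg adjustment and a threshold of 0.05. DESeq2 1.42.0, relative log expression scaling, no filter, a course block and leaving out each course were alternatives. The drift tests of the knockout and of its difference from CIMEF were added after the data were seen. Half-lives were fitted by weighted least squares on the log scale (noise 0.2, 400 grid values from 0.25 h to 10 times the last time, at least 10 net counts at 4 times, course 1 less its 0 h value) and compared with limma 3.58.1. EU counts were scaled by 3 standards found almost only in EU libraries (225 to 264016 counts there, 0 to 27 in input), a choice made after the data were seen. Scripts were tested on simulated data. A share of 0 was set against 3 counts and shares carry 95% intervals. The members and lists were chosen with earlier results of these data known. The rule was to name all 7 strands in each comparison, partner strands and targets from fixed lists, and up to 5 targets of a list by lowest p, of which 1 is not reported here. A gene listed as a possible host, 4930453N24Rik, lies elsewhere on chromosome 16 (from 64762205) and was not used as one. Symbols of 54409 genes were matched through the reference tables.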

Additional observations from a re-analysis of the deposited data

Results flagged for a closer look

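Within a course, input libraries were compared with each other for each strand, and in 10 of 47 groups of libraries the highest or lowest stood apart by Dixon's criterion, where chance gives about 1 in 20 groups. In the 168 h libraries of CIMEF, miR-99a-5p had 1204 CPM in course 1 (others 2074 to 2349 CPM), miR-99b-5p had 5658 CPM in course 2 (others 7173 to 8275 CPM) and miR-125b-5p had 86911 CPM in course 2 (others 71723 to 76769 CPM). In the 24 h libraries of DMEF, miR-99a-5p had 1261 CPM in course 1 (others 890 to 1027 CPM) and 1066 CPM in course 2 (others 845 to 920 CPM), and miR-99b-5p had 7141 CPM in course 2 (others 5765 to 6243 CPM). MiR-125a-5p had 15256 CPM in the 8 h library of CIMEF course 1 (others 17961 to 19831 CPM) and 19765 CPM in the 24 h library of CIMEF course 2 (others 22166 to 22950 CPM). In ESC, miR-100-5p had 3.88 CPM in the 4 h library of course 1 (others 1.05 to 2.04 CPM) and 68.6 CPM in the 8 h library of course 2 (others 3.13 to 4.57 CPM). The ESC library at 8 h is the one with 2263 counts of miR-1a-3p, and the part of that RNA in the value was not tested.

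The slope of miR-125b-5p input level over labelling time differed between the knockout and CIMEF by 0.16 on the log2 scale, by a test of the difference itself (edgeR adjusted p = 0.020). The knockout is 1 course, and genotype and culture cannot be told apart.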

How the results depend on the processing

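Of 886 values of single strands under other settings, 53 changed sign, 4 of them past the threshold in either fit. With the library standards the half-life difference of miR-125a-5p between ESC and DMEF was 0.18, the drift slopes of miR-99a-5p and miR-125b-5p in CIMEF were 0.083 and 0.061 without course 1 and -0.0683 and -0.0118 without course 2, and the early-label difference of miR-100-5p in ESC was -5.20 without ESC course 2 and 7.68 without ESC course 1. The library standards, an alternative for half-lives chosen after seeing the data, also left 0 of 7 strands past the threshold in both ESC contrasts of standing levels and 0 of 3 for ESC half-lives, and gave 1 for knockout half-lives. ESC half-lives also fell to 0 after division by the input share and with the replicate block, where no miRNA at all was called. Without the last time no strand could be tested for ESC half-lives. For CIMEF half-lives only 2 strands could be tested without the last time, and 1 passed. The same setting left 0 for drift in the knockout and 0 for the drift difference, which had 2 with no filter. DESeq2 called 3 strands for CIMEF standing levels and 1 for the knockout, beside 14.1% and 4.19% of miRNAs. A fit library by library called 4 for the knockout, beside 225 of 517 miRNAs (43.5%). That fit takes libraries of 1 knockout culture as replicates, so its calls do not measure the spread between cultures. Leaving out 1 course at a time gave 0 to 3 strands for CIMEF and 0 to 1 for knockout standing levels, 3 to 6 for early label in CIMEF, 0 to 6 in DMEF and 0 to 4 in ESC, 1 to 2 for CIMEF half-lives, 0 to 3 for drift in CIMEF, 0 to 1 in DMEF and 1 to 2 for the drift difference, and 11 to 17 listed targets for CIMEF mRNA, against 20. For these the cause was not tested, beyond the smaller number of courses. In the early-label fits where 0 strands passed, almost no miRNA was called at all, so that fall is not particular to these strands.

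Replicate numbers pair EU with input, and times, within a culture. There the replicate block raised early-label calls to 7 in CIMEF and DMEF, beside 51.4% and 47.1% of all miRNAs. It raised drift calls to 1 in CIMEF and 1 in DMEF, beside 26% and 22.1%. Between lines deviations of courses with the same number correlated at 0.107 (ESC, CIMEF), 0.0723 (ESC, DMEF) and 0.264 (CIMEF, DMEF), and with 2 numbers this does not show pairing. The block left 7 of 7 standing calls in both ESC contrasts.

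Counts over all features varied more. The split into higher and lower drift calls was 19 and 8 for the difference, against 19 and 1 with relative log expression scaling, and 12 and 2 in CIMEF, against 23 and 16 in DESeq2. Early-label calls in CIMEF were 147 in the main setting and 113 to 310 otherwise, in DMEF 110 and 0 to 284, in ESC 132 and 0 to 303. Standing calls were 0 and 0 to 207 for CIMEF, 7 and 0 to 225 for the knockout, 388 and 0 to 582 for ESC against DMEF, 459 and 1 to 569 against CIMEF. Drift calls were 96 and 17 to 98 in the knockout, 14 and 2 to 136 in CIMEF, 12 and 0 to 105 in DMEF, 10 and 0 to 24 in ESC, and 27 and 4 to 32 for the difference. Half-life calls were 115 and 40 to 159 for CIMEF, 6 and 0 to 91 for the knockout, and 16 and 0 to 20 for ESC, and mRNA calls 7340 and 3605 to 8773 for CIMEF. Half-lives under the library standards were a median of 0.247 times the main ones (0.0201 to 2.62). Depth limits ESC most, where EU libraries held as few as 1196 miRNA counts.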
